A study of Mus musculus with 4 samples.

Results

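The endothelial cells described here are the 387 barcodes, of 60396 that passed the cell filters, that carried transcripts of the vascular genes Pecam1, Cdh5, Kdr and Egfl7 in a single-cell RNA-seq study of the mouse small intestinal lamina propria (SILP). A barcode was kept as a cell with at least 500 unique molecular identifiers (UMIs, each standing for 1 captured RNA molecule), 200 to 2500 genes and at most 15% mitochondrial UMIs. It was called endothelial with at least 3 UMIs of the 4 genes together, from at least 2 of them, at most 1 UMI summed over the T cell genes Cd3e, Cd3d, Cd3g, Trac and Trbc2, and at most 3 UMIs summed over the stromal genes Col1a1, Col1a2, Col3a1, Dcn and Des. The cells were thus chosen by the measured counts of these genes, whose levels are given as a description and not as a finding.

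The study asked which lymphocytes differ in mice that carry point mutations in the seventh zinc finger of A20 (A20ZF7 mice), the motif that binds linear (M1-linked) ubiquitin. Cells of 2 wild-type (WT) mice and of 2 A20ZF7 mice, all 12 weeks old, were hashtagged per animal, pooled by genotype and loaded at 60000 cells per genotype, so each genotype is 1 library. A Percoll step for leukocytes and a negative selection for T cells and innate lymphoid cells came before loading, so the endothelial cells are those that remained in a preparation made for other cells. The mutation is carried in every cell of the A20ZF7 animals, endothelium included, and these mice have enteritis. With 1 library per genotype no test between genotypes was possible, and every interval below is a 95% interval that covers counting error only, not the spread between mice.

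The WT library gave 22148 filtered cells with a median of 917 UMIs, and the A20ZF7 library gave 38248 with a median of 960. The 232 WT endothelial cells held 350049 UMIs, with a median of 1267 UMIs and 852.5 genes per cell, and the 155 A20ZF7 endothelial cells held 188589 UMIs, with medians of 1040 and 706. Levels are given as CPM, the UMIs of a gene scaled to the same library total, after summing all endothelial cells of a library. A count of 3 UMIs corresponds to 8.57 CPM in WT and 15.9 CPM in A20ZF7 endothelial cells, and a gene with 0 UMIs was compared as if it had 3. Where shares of cells with a UMI are compared after thinning, every cell was reduced to 500 UMIs of genes listed for both libraries, which left out 1 endothelial cell of each library. Ratios and gene counts given after thinning come instead from cells thinned before the gate, which then chose its cells anew. The filtered barcodes of the libraries share 1196 barcode sequences. The surface antibody matrices deposited for the genotypes hold identical values in 3 of 3 files and gave a median of 2147 antibody UMIs at WT barcodes but 48 at barcodes found only among A20ZF7 cells, so antibodies are reported for WT only.

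Endothelial cells line every vessel, and those of the gut differ along the vascular tree. Capillaries under the epithelium are fenestrated and handle lipids and water, postcapillary venules display selectins, Icam1, Vcam1 and the gut addressin Madcam1 on which leukocytes roll and arrest, and lymphatic vessels (lacteals and collecting vessels) carry chylomicrons and leukocytes away and secrete the chemokine Ccl21a. A20, encoded by Tnfaip3, is induced by NF-kB and limits it, and NF-kB is also what drives the adhesion molecules and many chemokines of inflamed venules.

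The gate picked cells that carried the wider endothelial program. Pecam1 (CD31, an adhesion molecule of the cell border, chr11:106654217-106750628, minus strand, GRCm38) was detected in 85.8% of WT and 82.6% of A20ZF7 endothelial cells. Cdh5 (VE-cadherin, chr8:104101625-104144511, plus strand) was detected in 75.9% and 58.1%, Kdr (VEGF receptor-2, chr5:75932827-75978458, minus strand) in 54.7% and 61.3%, and Egfl7 (a secreted endothelial factor, chr2:26580014-26593120, plus strand) in 64.7% and 58.7%. The median cell had 4 UMIs of these genes in WT and 3 in A20ZF7. The 24 pan-endothelial genes that the gate did not use were at 12410 CPM (12043 to 12784) in WT and 8473 CPM (8063 to 8899) in A20ZF7 endothelial cells. A pan-endothelial list of 25 genes that also counts Egfl7 summed to 177 and 153 CPM in T cells (3 or more T cell UMIs) and to 460 and 421 CPM in stromal cells (4 or more stromal UMIs), both classes with none of the gate genes by definition. By ratio to all other filtered cells, the 15 leading genes were the gate genes Egfl7, Cdh5 and Kdr, and then Cd300lg, Cldn5, Madcam1, Mmrn2, Cytl1, Lrg1, Tie1, Ptprb, Rnd1, Ackr1, Vwf and Fam110d. Madcam1 was 54.9-fold higher than in all other cells in WT and 61.2-fold in A20ZF7. Cldn5, the tight junction claudin of endothelium, was 59.8-fold and 64.9-fold higher. Cd300lg, a receptor of capillary and venular endothelium, was 75.4-fold and 60.1-fold higher. Genes of capillaries and of Madcam1-bearing venules were thus among the leaders, none of them used by the gate apart from Egfl7, Cdh5 and Kdr.

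**Figure D1:**
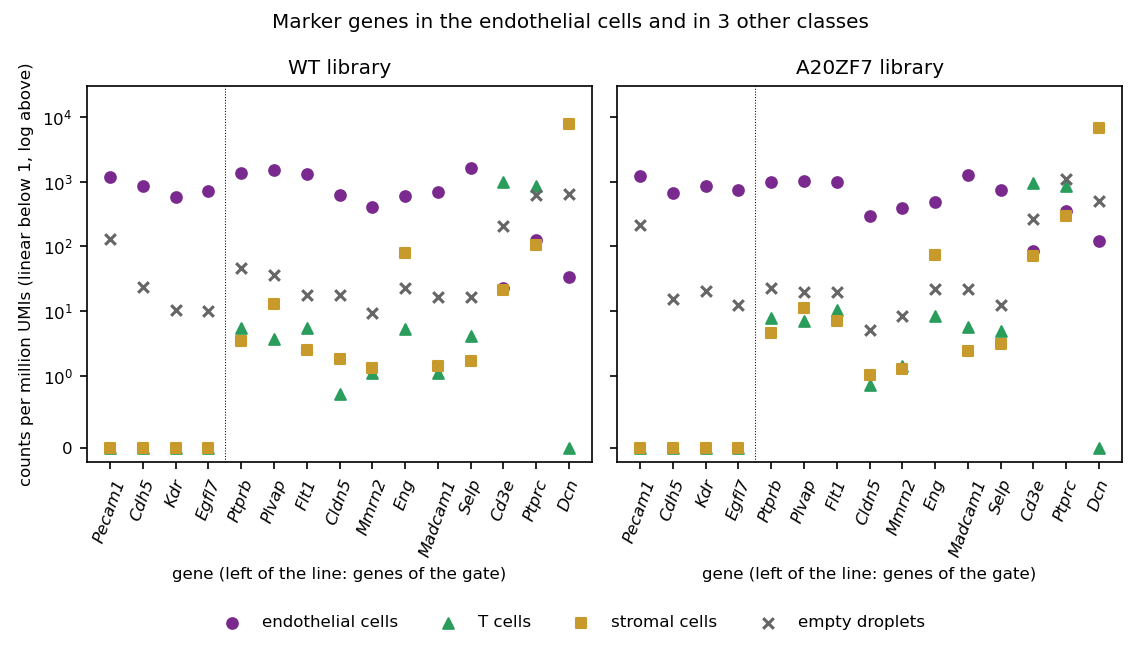
Level of endothelial, T cell and stromal genes (CPM, log axis that is linear below 1) in endothelial cells, T cells, stromal cells and empty droplets of the WT (left) and A20ZF7 (right) libraries, 1 point per class and library. Gate genes are at 0 in the T cell and stromal classes by definition, and genes outside the gate, such as Plvap at 1500 CPM in WT and 1034 CPM in A20ZF7 endothelial cells, sit far above both classes.

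RNA of other cell types was found in the endothelial cells of both libraries. The 7 T cell genes summed to 106 CPM in WT and 292 CPM in A20ZF7 endothelial cells, led by Cd3e at 22.9 and 84.8 CPM, with none of the 7 at 0. The 5 pan-leukocyte genes summed to 597 and 1267 CPM, led by Cd52 at 203 and 371 CPM. At least 3 UMIs of these 5 genes were found in 11.6% of WT and 24.5% of A20ZF7 endothelial cells, against 63.6% and 71.2% of T cells and 7.35% and 15.2% of stromal cells. Empty droplets (barcodes of 10 to 100 UMIs) held the pan-leukocyte genes at 1766 and 2508 CPM, above the endothelial cells of either library. The 6 genes of other lymphoid and NK cells summed to 840 and 1363 CPM, led by Rora at 346 and 599 CPM. The 7 B and plasma cell genes summed to 4154 and 4311 CPM, led by Igha at 2825 and 3346 CPM, which was at 8290 and 8162 CPM in empty droplets. Fibroblast genes were at 154 and 323 CPM, with Dcn at 34.3 and 122 CPM, against 20499 and 18315 CPM in stromal cells. The epithelial genes summed to 289 CPM in WT and 31.8 CPM in A20ZF7, with Fabp1 at 169 and 0 CPM. Smooth muscle and pericyte genes summed to 697 and 536 CPM, led by Tagln. The defining mast cell genes were at 0 for 4 of 5, with only Kit detected, and glial genes were at 0 for 3 of 4 in WT and 4 of 4 in A20ZF7. The macrophage and dendritic list summed to 294 and 318 CPM, led by Fcer1g, the erythroid and platelet list to 31.4 and 15.9 CPM, and the pancreatic enzyme list to 5.71 and 37.1 CPM. Il17a, a T cell cytokine gene named here after its values were seen, had 95 UMIs in A20ZF7 endothelial cells (504 CPM, in 16.8% of cells) and 0 in WT, with A20ZF7 empty droplets at 285 CPM. The part of this RNA in the differences between the libraries was not tested.

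Endothelial cells made up a smaller share of the A20ZF7 library. They were 232 of 22148 WT cells (1.05%, 0.918 to 1.19) and 155 of 38248 A20ZF7 cells (0.405%, 0.344 to 0.474), a ratio of 0.387 (0.316 to 0.474, log method, with exact binomial intervals on the shares). The size of the ratio depended on the limits on T cell and stromal UMIs. By the marker UMIs alone, 324 WT (1.46%, 1.31 to 1.63) and 343 A20ZF7 barcodes (0.897%, 0.805 to 0.996) qualified, a ratio of 0.613 (0.527 to 0.713). Of these, 16.0% in WT and 40.5% in A20ZF7 were removed for T cell UMIs, and 13.9% and 25.1% for stromal UMIs. T cells by the marker class were 2261 of the WT and 5503 of the A20ZF7 cells. Fewer endothelial cells in the tissue, another yield of the preparation and more of the other cells in the denominator cannot be told apart from these shares.

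The threshold ran through a continuum. The 71 WT and 80 A20ZF7 cells just inside it, with 3 marker UMIs, held the 24 pan-endothelial genes at 10750 and 8679 CPM. The 72 and 122 barcodes just outside, with 2 marker UMIs of 2 genes, held them at 8174 and 6076 CPM. Barcodes with 3 or more UMIs of a single marker gene, 55 in each library, were at 1511 and 2078 CPM. Barcodes just outside the T cell limit, with 2 or 3 T cell UMIs, were at 8047 CPM in WT (30 cells) and 6043 CPM in A20ZF7 (55 cells).

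Surface protein counts, which the gate did not use, showed CD31 on the WT endothelial cells. The DNA-barcoded antibodies whose counts set these cells apart are shown by their barcodes, read 5′ to 3′, the letters by which each protein was counted:
CD31: gctgtagtatcatgt
CD54: ataaccgacacagtg
CD49f: ttccgaggatgatct
ESAM: tatagtttccgccgt
CD31, the protein product of Pecam1, had a median of 261 UMIs per endothelial cell, 9 per T cell, 8 per stromal cell and 6 per empty droplet. As a share of each cell class's antibody UMIs it was 74.5 per 1000 in endothelial cells and 6.47 per 1000 in T cells, an 11.5-fold difference. Of the WT endothelial cells, 94.0% lay above the 95th percentile of T cells for CD31, against 4.06% of stromal cells. Total antibody UMIs were also higher on endothelial cells, with a median of 3988 against 1738 on T cells, and the isotype control antibodies summed to a median of 21 against 12, which is why shares are compared.

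Of the 138 antibodies, 8 were at least 2-fold higher per 1000 antibody UMIs in endothelial cells than in both T cells and stromal cells, while the median over all 138 was 0.733 against T cells. Besides CD31 these were CD49f (integrin alpha-6, a laminin receptor, 4.86-fold over T cells), CD54 (the protein of Icam1, 5.57-fold), Sca1 (4.51-fold), CD39 (an enzyme that removes extracellular ATP, 3.51-fold), CD38 (3.17-fold), Ly6C (2.87-fold) and ESAM (an endothelial junction adhesion molecule, 2.85-fold). CD49f had a median of 339 UMIs on endothelial cells, 34 on T cells and 35 on stromal cells. CD54 had medians of 19, 3 and 10 UMIs, and 59.9% of endothelial cells lay above the 95th percentile of T cells. ESAM had medians of 31, 5 and 5 UMIs. Antibodies to several other endothelial proteins did not reach 2-fold over T cells. By the same shares Flk1 (the protein of Kdr) was at 0.833, CD300LG at 0.698, CD106 (the protein of Vcam1) at 0.686 and CD34 at 0.754. P-selectin was at 1.20 and MAdCAM1 at 1.30. The protein and transcript counts moved together from cell to cell. Among WT cells within the T cell and stromal limits, median CD31 was 9 UMIs with none of the 4 gate transcripts, 13 with 1 transcript, 24 with 2, 129 with 3, 219 with 4 to 5 and 385.5 with 6 or more. Median RNA UMIs per cell also rose over these groups, from 753 to 1674, and these CD31 counts are not scaled for depth. The 47 WT barcodes that the gate removed for T cell UMIs with no excess of stromal UMIs had a median of 315 CD31 UMIs and a median antibody total of 4759, both above those of the cells that were kept.

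**Figure D2:**
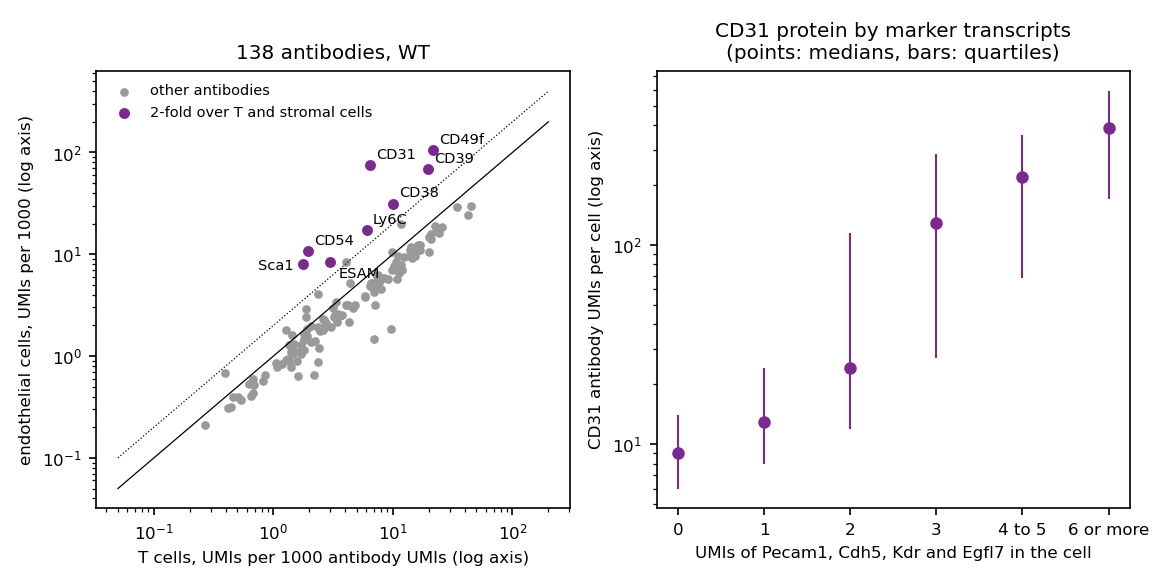
Left, UMIs per 1000 antibody UMIs for 138 surface antibodies on WT T cells (x axis, log scale) and WT endothelial cells (y axis, log scale), 1 point per antibody. Right, CD31 antibody UMIs per WT cell (y axis, median with quartiles) by the number of UMIs of the 4 gate genes (x axis), which climb from a median of 9 at 0 UMIs to 385.5 at 6 or more.

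The endothelial cells could be divided by Madcam1. This split was chosen after the levels had been seen, and comparisons across it are descriptions of the same cells. Madcam1 (chr10:79664559-79668537, plus strand, GRCm38) encodes the ligand of the gut-homing integrin alpha-4 beta-7. It was detected in 78 of 232 WT (33.6%) and 53 of 155 A20ZF7 endothelial cells (34.2%). Once every cell was thinned to 500 UMIs the shares were 16.0% and 22.7%, against 0.0887% and 0.315% of T cells. Madcam1 positive cells were deeper, with a median of 1850 against 1027.5 UMIs in WT and 1362 against 913 in A20ZF7. The 150 bases before its transcription start (RefSeq, GRCm38.p6, chr10:79664409-79664558, plus strand) are shown because they hold a pair of adjacent matches to the NF-kB consensus (the kB site, searched on both strands), in capitals:
Madcam1: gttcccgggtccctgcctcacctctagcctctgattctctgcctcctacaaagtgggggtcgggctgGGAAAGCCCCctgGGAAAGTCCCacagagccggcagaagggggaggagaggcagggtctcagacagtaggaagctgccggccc
The matches begin 83 and 70 bases before the start. Of 32851 RefSeq promoters searched over the 250 bases before the start, 1281 (3.9%) hold at least 1 such match. A match describes the sequence and is not evidence that NF-kB binds there.

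Madcam1 positive cells carried the genes of postcapillary venules. Ackr1, the atypical chemokine receptor of venules, was at 885 CPM in Madcam1 positive and 26.2 CPM in Madcam1 negative WT cells (33.7-fold, 14.1 to 106) and at 733 and 9.37 CPM in A20ZF7 cells (78.2-fold, 13.5 to 3139). Selp, or P-selectin, on which leukocytes roll, was at 2780 and 645 CPM in WT (4.31-fold, 3.52 to 5.31) and at 1600 and 93.7 CPM in A20ZF7 (17.1-fold, 8.99 to 36.4). Lrg1, a secreted leucine-rich glycoprotein of venules, was at 521 and 99.6 CPM in WT (5.23-fold, 3.15 to 9.12) and at 1160 and 178 CPM in A20ZF7 (6.52-fold, 3.95 to 11.3). The adhesion molecules showed the same side. Vcam1 was 6.88-fold (3.22 to 16.9) higher in Madcam1 positive WT cells and 3.99-fold (2.27 to 7.35) higher in A20ZF7 cells, and Icam1 was 3.46-fold (2.55 to 4.77) and 3.39-fold (2.31 to 5.07) higher. Nr2f2, the transcription factor of venous identity, was 3.91-fold and 2.74-fold higher. The CD54 antibody, which reads Icam1 protein, had a median of 79.5 UMIs on Madcam1 positive WT cells and 9 on Madcam1 negative WT cells, or 17.4 and 5.10 per 1000 antibody UMIs. CD31 was at 91.1 and 60.2 and CD49f at 139 and 77.3 per 1000 antibody UMIs in these cells.

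Madcam1 negative cells had higher levels of several capillary genes. Rgcc, a cell cycle regulator of capillary endothelium, was at 126 CPM in Madcam1 positive and 902 CPM in Madcam1 negative WT cells (0.139, 0.0829 to 0.222) and at 48.8 and 609 CPM in A20ZF7 cells (0.0802, 0.0212 to 0.215). Gpihbp1, which anchors lipoprotein lipase to the capillary wall, was at 18.8 and 309 CPM in WT cells, and all of its 26 UMIs in A20ZF7 cells lay in Madcam1 negative cells. Aqp1, a water channel, was at 301 and 1557 CPM in WT (0.193, 0.140 to 0.263) and at 110 and 197 CPM in A20ZF7 (0.558, 0.225 to 1.27), where the interval spans 1. Flt1, the decoy VEGF receptor-1, was at 0.423 and 0.585 of the level in Madcam1 negative cells. Dll4, a Notch ligand, was at 0.144 and 0.261. Aqp1 and Flt1 are on the pan-endothelial list and Dll4 on the arterial list, not on the capillary list. Fabp4, a fatty acid-binding protein, was at 0.907 in WT and 0.550 (0.469 to 0.642) in A20ZF7 cells. Some genes of the capillary list did not lie on this side. Plvap, the protein of fenestral diaphragms, was 2.44-fold (2.02 to 2.94) and 2.13-fold (1.58 to 2.89) higher in Madcam1 positive cells, and the ratios of Cav1 were 0.948 and 1.2, with intervals that span 1. Of 50 genes of the lists with at least 20 UMIs in each library and UMIs on both sides of the split, 22 were above a ratio of 1 in both libraries and 21 below 1 in both.

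**Figure D3:**
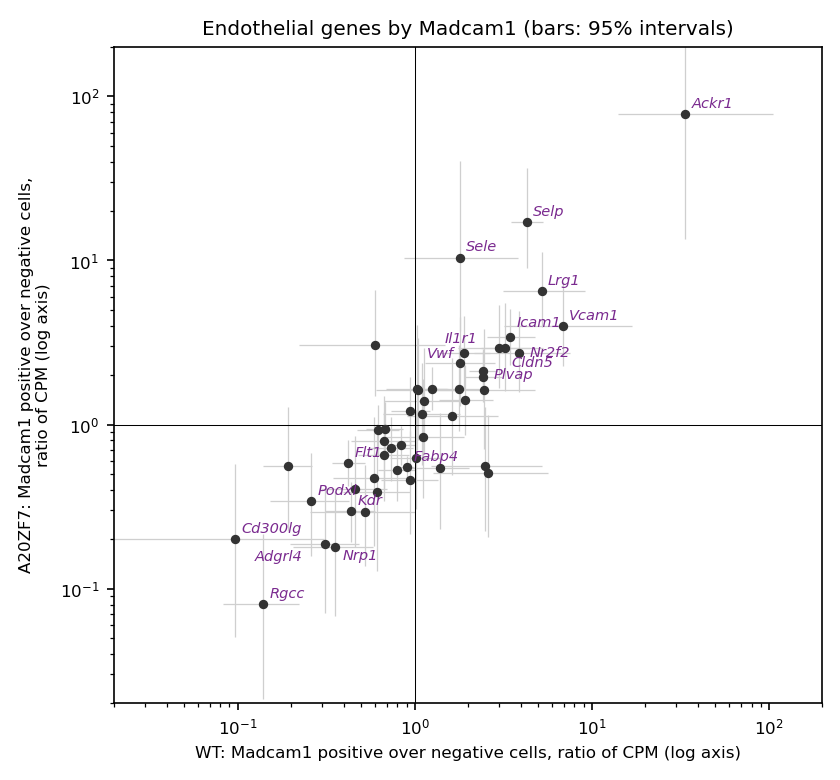
Ratio of Madcam1 positive over Madcam1 negative endothelial cells (CPM, log axes) in WT (x axis) and A20ZF7 (y axis), 1 point per gene for 50 genes with 95% counting intervals as bars. Venular genes such as Ackr1, Selp and Lrg1 lie at the upper right and capillary genes such as Rgcc and Cd300lg at the lower left, with 22 genes above 1 and 21 below 1 in both libraries.

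Endothelial cells with a lymphatic marker were few. A UMI of Lyve1, a hyaluronan receptor of lymphatic endothelium (chr7:110850607-110863239, minus strand, GRCm38), or of Prox1, the transcription factor that sets lymphatic identity (chr1:190118035-190170714, minus strand), was found in 8 of 232 WT endothelial cells (3.45%, 1.5 to 6.68) and 6 of 155 A20ZF7 cells (3.87%, 1.43 to 8.23). The ratio was 1.12 (0.397 to 3.17), an interval that spans 1. After thinning to 500 UMIs the shares were 1.73% and 3.25%. Among T cells, which should lack both genes, 0 of 2261 in WT, which allows up to 0.163%, and 13 of 5503 in A20ZF7 (0.236%) had such a UMI, at median depths of 858 and 1087 UMIs. Lyve1 was detected in 4 WT and 6 A20ZF7 endothelial cells, Prox1 in 5 and 3, and both in 1 and 3.

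Several other lymphatic genes, which the Lyve1 and Prox1 split did not use, were higher in these cells. At least 2 of Pdpn, Flt4, Mmrn1, Ccl21a and Reln were detected in 4 of the 8 WT and 6 of the 6 A20ZF7 positive cells, against 1 of 224 and 1 of 149 negative cells. The other 4 WT positive cells had none of the 5. Summed, the 5 genes were 42.4-fold (25.5 to 71.9) higher in positive than in negative WT cells and 239-fold (130 to 488) higher in A20ZF7 cells. Ccl21a, which draws Ccr7-bearing leukocytes into lymphatics, had 18 UMIs in positive and 8 in negative WT cells, and all 95 of its UMIs in A20ZF7 endothelial cells lay in the 6 positive cells, 65 of them in 1 cell. Mmrn1, a secreted multimerin, was 85.4-fold (22.0 to 483) and 164-fold (50.8 to 840) higher in positive cells. Flt4, or VEGF receptor-3, the receptor for Vegfc on lymphatics, was 12.8-fold (3.95 to 36.9) and 22.6-fold (6.87 to 79) higher. The other genes of the lymphatic list followed in part. Fgl2 was 1.35-fold (0.158 to 5.22) and 14.8-fold (6.70 to 32.4) higher in positive cells of WT and A20ZF7, Maf 2.44-fold (0.636 to 6.73) and 5.65-fold (2.92 to 10.3), and Nrp2 1.6-fold and 2.26-fold with intervals that span 1. Thy1 was 7.13-fold (2.70 to 17.1) higher in A20ZF7 positive cells, whereas in WT all 17 of its UMIs, and all 14 of Nts, lay in negative cells. Genes of blood vessels lay on either side. Flt1 was at 0.334 (0.122 to 0.732) and 0.186 (0.0224 to 0.682) of the level in negative cells and Plvap at 0.600 (0.308 to 1.06) and 0.0873 (0.00220 to 0.492). Gpihbp1 was 2.25-fold (0.703 to 5.56) and 7.53-fold (2.83 to 18.2) higher in positive cells and Aqp1 1.66-fold (1.01 to 2.58) and 2.61-fold (0.661 to 7.51). No UMI of Lyve1, Flt4, Mmrn1 or Ccl21a was found in a Madcam1 positive cell of either library, but in WT Prox1 had 3 UMIs in 2 such cells. These 2 of the 8 WT positive cells carried 12 Madcam1 UMIs, and Selp was 2.43-fold (1.77 to 3.26) higher in positive than in negative WT cells. The CD31 antibody had a median of 152.5 UMIs on the 8 WT positive cells.

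The levels of endothelial genes were then set side by side between the genotypes. Of the 2092 genes that reached 100 CPM and 20 UMIs in whichever library was higher, 146 (6.98%) were at least 2-fold higher and 115 (5.5%) at least 2-fold lower in A20ZF7 than in WT endothelial cells, with a median ratio over all 2092 genes of 1.02. A gene that reached this minimum only in the library where it was higher was more likely to differ, so counts and medians over the list members that passed, given below, are descriptions of those members and not of the whole lists. Of 602 genes at least 3 times the empty-droplet level in the higher library, 21 (3.49%) were at least 2-fold higher and 86 (14.3%) at least 2-fold lower, a split that this choice by the higher library bears on. The genes named next are the 10 highest and 10 lowest ratios among these 602. Over the other settings tried, the count of higher genes ran from 15 to 438 and that of lower genes from 37 to 280. Because endothelial subtypes were pooled, more cells of a subtype and more RNA per cell cannot be told apart.

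**Figure D4:**
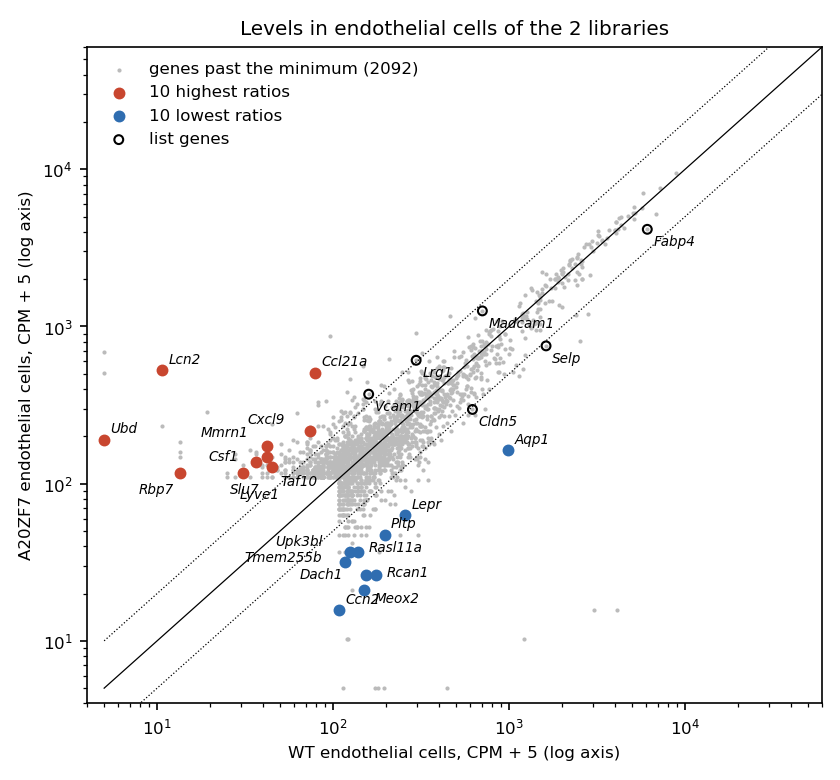
Level of 2092 genes in WT (x axis) and A20ZF7 (y axis) endothelial cells, CPM plus 5 on log axes, 1 point per gene, with dotted lines at 2-fold, the 10 highest and 10 lowest named genes in colour and 6 list genes as open circles. Lcn2 and Ubd lie at the upper left and Aqp1 and Meox2 at the lower right, and unlabelled points as far out include immunoglobulin variable genes and Il17a, which the naming rule left out.

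Lcn2, Ubd and Rbp7 had the highest ratios. Lcn2, or lipocalin-2, a secreted protein that withholds iron-carrying siderophores from bacteria (chr2:32384633-32388252, minus strand, GRCm38), had 2 UMIs in 1 WT endothelial cell and 99 UMIs in 41 A20ZF7 endothelial cells. Its level was 5.71 CPM (0.692 to 20.6) in WT and 525 CPM (427 to 639) in A20ZF7, 91.9-fold higher (24.8 to 769). This fold rests on 2 WT UMIs. By HTODemux it was at least 21.6 without WT mouse 2, and 29.8 without WT mouse 1. With cells thinned before the gate it was at least 4.10. The values 21.6 and 4.10 are lower bounds, with no Lcn2 UMI in the WT cells compared, so they do not show a smaller difference. The share of cells with an Lcn2 UMI was 0.431% and 26.5%, and 0.433% and 11.7% after thinning, against 0% and 0.167% of thinned T cells. Empty droplets held Lcn2 at 0.528 and 19.7 CPM. All other cells also had more of it in the A20ZF7 library (15-fold, 10.5 to 22.2), and stromal cells had 0.131 and 17.2 CPM. In A20ZF7 endothelial cells Lcn2 was present on both sides of the Madcam1 split, at 794 CPM in Madcam1 positive and 319 CPM in Madcam1 negative cells (2.49-fold, 1.62 to 3.89). The 6 Lyve1 or Prox1 positive A20ZF7 cells held 28 of the 99 UMIs, and all 6 had at least 1.

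Ubd, or FAT10, a ubiquitin-like modifier (chr17:37193892-37196095, plus strand), had 0 UMIs in WT (0 to 10.5 CPM) and 35 UMIs in 21 A20ZF7 endothelial cells, 186 CPM (129 to 258). This was at least 21.7-fold higher with WT taken at the floor of 3 UMIs, and at least 2.28-fold with cells thinned before the gate. It was detected in 13.5% of A20ZF7 endothelial cells, 7.14% after thinning, and in 0.111% of thinned A20ZF7 T cells. Madcam1 positive cells held 33 of its 35 UMIs. In all other cells Ubd was 6.98-fold higher (4.70 to 10.8) in the A20ZF7 library. Rbp7, a retinol-binding protein of capillaries, had 3 and 21 UMIs, 8.57 and 111 CPM (13.0-fold, 3.88 to 68.0). Over the alternatives the ratio of Rbp7 ran from at least 4.57 to 31.2. The lowest value, without WT mouse 2 by HTODemux, is a lower bound, with 0 WT UMIs taken at the floor of 3. All 21 A20ZF7 UMIs of Rbp7 were in Madcam1 negative cells. Its ratio in all other cells was 0.926.

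The bases before the starts of Ubd, Lcn2 and Lrg1 are shown for comparison with those of Madcam1, since Ubd, Lcn2 and Lrg1 were at least 2-fold higher and Madcam1 1.79-fold higher in A20ZF7 endothelial cells (RefSeq, GRCm38.p6, chr17:37193742-37193891, plus strand; chr2:32387740-32387889, minus strand; chr17:56121947-56122096, minus strand), with capitals again marking the kB consensus on either strand:
Ubd: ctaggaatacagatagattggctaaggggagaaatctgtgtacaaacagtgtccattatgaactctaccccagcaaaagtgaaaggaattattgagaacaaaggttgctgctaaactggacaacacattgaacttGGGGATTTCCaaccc
Lcn2: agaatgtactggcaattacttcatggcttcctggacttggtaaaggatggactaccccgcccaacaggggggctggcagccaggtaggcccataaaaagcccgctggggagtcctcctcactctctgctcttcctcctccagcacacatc
Lrg1: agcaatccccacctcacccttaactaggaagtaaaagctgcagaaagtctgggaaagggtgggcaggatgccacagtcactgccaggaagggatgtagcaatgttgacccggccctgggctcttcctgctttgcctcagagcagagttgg
Ubd has 1 match, beginning 15 bases before its start, and Lcn2 and Lrg1 have none in these windows, which says only that these letters are not there. The windows follow the RefSeq starts, and those of Lcn2 and Lrg1 overlap the genes as annotated by GENCODE, the source of the gene positions, whose starts lie further upstream. Of the 10 genes with the highest ratios, 8 had a promoter in the table and 2 of these, Ubd and Csf1, held the kB consensus within 250 bases, beside 3.9% of all promoters searched. Of the 10 lowest, 9 had a promoter and 0 held it.

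The other genes with high ratios were lymphatic genes, cytokines and a pair of nuclear factors. Ccl21a was at 74.3 and 504 CPM (6.78-fold, 4.36 to 10.9), Mmrn1 at 37.1 and 170 CPM (4.57-fold, 2.33 to 9.49) and Lyve1 at 31.4 and 133 CPM (4.22-fold, 2.0 to 9.5). Ccl21a and Mmrn1 each came from 5 WT and 6 A20ZF7 cells, so these ratios rest on the few lymphatic cells. In all filtered cells with both Lyve1 and Prox1, inside the gate or not, neither was higher in A20ZF7. There Ccl21a was at 5164 and 4564 CPM and Mmrn1 at 3851 and 1808 CPM. With no T cell or Ptprc UMI allowed and at most 1 stromal UMI, Mmrn1 was at 0.705, Ccl21a at 1.24 and Lyve1 at 1.13. In the other 15 of 16 alternatives each stayed at least 2-fold higher, up to 23.6-fold for Mmrn1, 70.1-fold for Ccl21a and 24.7-fold for Lyve1. The lymphatic list of 12 genes had 7 members past the minimum, 5 at least 2-fold higher (Lyve1, Mmrn1, Ccl21a, Maf and Thy1) and 0 lower, with a median ratio of 2.95 and a sum of 823 and 1935 CPM, beside the 6.98% of all genes tested. Of the 5, Lyve1, Mmrn1, Ccl21a and Thy1 were below 100 CPM in WT and passed only through A20ZF7. The same list summed to 821 and 1122 CPM in T cells. The part of T cell RNA in the list was not tested. Csf1, the growth factor of macrophages, was at 37.1 and 143 CPM (3.86-fold, 1.92 to 8.14) in 5.6% and 11% of cells, with a ratio of 1.1 in all other cells. Cxcl9, an interferon-induced chemokine for Cxcr3-bearing lymphocytes, was at 68.6 and 212 CPM (3.09-fold, 1.82 to 5.36), with 2.48 in all other cells. Its ratio was 1.37 with cells thinned before the gate. Among the gated cells thinned afterwards it was detected in 2.16% of WT and 8.44% of A20ZF7 cells. Slu7, a splicing factor, was at 25.7 and 111 CPM (4.33-fold, 1.90 to 10.7), and Taf10, a subunit of the basal transcription machinery, at 40 and 122 CPM (3.05-fold, 1.5 to 6.41), with ratios of 1.03 and 1.61 in all other cells. The ratio of Slu7 was 1.88 with no T cell or Ptprc UMI and 1.54 with neither limit. After thinning, Slu7 was detected in 2.16% and 4.55% of endothelial cells and in 3.68% and 2.60% of T cells, so its endothelial share is near that of T cells. Taf10 was likewise in 2.16% and 6.49% of thinned endothelial cells and in 3.46% and 5.06% of thinned T cells.

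Among the 10 lowest ratios, Aqp1 was the most abundant. Aqp1 (chr6:55336432-55348555, plus strand) had 345 UMIs in WT and 30 in A20ZF7 endothelial cells, 986 CPM (884 to 1095) and 159 CPM (107 to 227), a ratio of 0.161 (0.107 to 0.235). It was detected in 36.6% and 10.3% of cells, 27.3% and 6.49% after thinning, against 0.222% and 0.130% of thinned T cells, and its ratio in all other cells was 0.400 (0.353 to 0.451). The lower level was found on both sides of the Madcam1 split, with ratios of A20ZF7 over WT of 0.365 (0.157 to 0.752) in Madcam1 positive and 0.126 (0.0771 to 0.197) in Madcam1 negative cells. The transcription factors and regulators in this group had few UMIs in A20ZF7. Meox2, a homeobox factor of capillary endothelium (chr12:37108540-37179534, plus strand), was at 146 CPM (108 to 192) and 15.9 CPM (3.28 to 46.5), a ratio of 0.109 (0.0218 to 0.338). Ccn2, a matricellular target of YAP and TGF-beta signalling, was at 103 CPM (72.0 to 142) and 10.6 CPM (1.28 to 38.3), a ratio of 0.103 (0.0120 to 0.401). Rcan1, an inhibitor of calcineurin, was at 171 and 21.2 CPM (0.124, 0.0327 to 0.334), and Dach1, a transcription factor of coronary and other arteries, at 149 and 21.2 CPM (0.143, 0.0375 to 0.388). Lepr, the leptin receptor, was at 251 and 58.3 CPM (0.232, 0.112 to 0.436) in 24.6% and 5.16% of cells. Pltp, a phospholipid transfer protein, was at 191 and 42.4 CPM (0.222, 0.0919 to 0.462). Rasl11a, Tmem255b and Upk3bl completed the group at ratios of 0.237, 0.238 and 0.265. All 10 were also below 1 in all other cells, at 0.367 for Ccn2, 0.381 for Meox2, 0.724 for Pltp and 0.674 for Lepr, and WT stromal cells held Pltp and Lepr at 325 and 314 CPM, above WT endothelial cells. With cells thinned to 500 UMIs before the gate, the ratio was 1.02 for Rcan1, 1.37 for Upk3bl and 0.683 for Tmem255b. Among the gated cells thinned afterwards, Rcan1 was detected in 6.93% of WT and 0.649% of A20ZF7 cells. There Tmem255b was in 6.06% and 1.30%, and Upk3bl in 3.46% and 1.95%, with intervals that overlap.

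The gene lists are given by vessel type and then by role. The pan-endothelial list summed to 13135 CPM in WT and 9211 CPM in A20ZF7 (0.701, 0.663 to 0.741), with a median ratio of 0.731 over its 25 members, 0 at least 2-fold higher and 4 at least 2-fold lower (Cldn5, Robo4, Sox17 and Aqp1), beside the 6.98% and 5.5% of all genes tested. Capillary and lipid-handling genes summed to 11273 and 8161 CPM, a median ratio of 0.769 over 11 of 12 members past the minimum, with 1 at least 2-fold lower, and the list includes the gate gene Kdr. The lower one, which was at 0.630 with cells thinned before the gate, was Fabp5, at 343 and 101 CPM (0.294, 0.171 to 0.479). Fabp4 was at 6096 and 4147 CPM (0.680, 0.626 to 0.739), Plvap at 1500 and 1034 CPM (0.689, 0.582 to 0.814) and Cav1, the coat protein of caveolae, at 763 and 398 CPM. The arterial list had 5 of 12 members past the minimum, 3 of them at least 2-fold lower (Sox17, Stmn2 and Clu), beside the 5.5% of all genes tested. Its median ratio was 0.483, and Stmn2 and Clu passed only through WT. Within the pan-endothelial list, the same 24 genes outside the gate were at 13022 and 9034 CPM in cells with 0 T cell UMIs and at 8937 and 7186 CPM in cells with 1.

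Venular genes ran the other way for several members. All 10 of the list passed the minimum, with a median ratio of 1.72, 2 at least 2-fold higher and 1 at least 2-fold lower, beside the 6.98% and 5.5% of all genes tested. The sum was 4262 and 4677 CPM (1.1, 1.01 to 1.19). Madcam1 was at 700 CPM (615 to 793) in WT and 1251 CPM (1097 to 1422) in A20ZF7 (1.79-fold, 1.49 to 2.15). Vcam1 was at 154 and 366 CPM (2.37-fold, 1.64 to 3.45) and was detected in 12.5% and 22.6% of cells, and it was at least 2-fold higher in 12 of 17 alternatives. Lrg1 was at 291 and 604 CPM (2.07-fold, 1.57 to 2.74), at least 2-fold in 9 of 17 alternatives, and Nr2f2 at 183 and 329 CPM. Sele, or E-selectin, was at 100 and 191 CPM (1.91-fold, 1.17 to 3.13). Selp, the other endothelial selectin, went against these genes at 1617 CPM (1486 to 1756) and 748 CPM (629 to 882), a ratio of 0.462 (0.382 to 0.557) that was at most 0.5 in 13 of 17 alternatives. Ackr1 was at 417 and 323 CPM (0.776, 0.565 to 1.05), an interval that spans 1.

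These venular differences were also present when the Madcam1 positive cells alone were set side by side. Lrg1 was 2.23-fold higher in A20ZF7 (1.64 to 3.03), Vcam1 2.20-fold (1.45 to 3.35) and Sele 2.97-fold (1.66 to 5.41). Of the cytokine genes, Csf1 was 4.28-fold (1.95 to 10.1) and Cxcl9 6.81-fold (3.02 to 17.3) higher. Selp was at 0.575 (0.470 to 0.701) and Cldn5 at 0.471 (0.321 to 0.675) of the WT level. Icam1 in these cells was at 1035 and 1209 CPM (1.17, 0.901 to 1.51), an interval that spans 1. In Madcam1 negative cells Vcam1 was at 3.80 (1.55 to 10.2) and Selp at 0.145 (0.0680 to 0.276) of the WT level. There Lrg1 was at 1.79, Sele at 0.511, Csf1 at 2.98 and Cxcl9 at 1.34, with intervals that span 1.

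Of the leukocyte adhesion list, 11 of 14 members passed the minimum. Of these, 1 (Vcam1) was at least 2-fold higher and 2 (Selp and Jam2) at least 2-fold lower, beside the 6.98% and 5.5% of all genes tested, with a sum of 5871 and 5531 CPM. The median ratio of 1.02 is that of the gate gene Pecam1. Icam1 was at 634 and 726 CPM (1.15, 0.919 to 1.42). Junction genes, with the gate gene Cdh5 among them, had a median ratio of 0.618 over 8 of 12 members, 0 higher and 3 lower beside the same shares, and a sum of 4611 and 3012 CPM (0.653, 0.593 to 0.719). Cldn5 was at 614 and 292 CPM (0.475, 0.346 to 0.641), Tjp1, the scaffold ZO-1, at 329 and 138 CPM (0.420), Jam2 at 303 and 133 CPM (0.438), and Esam at 417 and 228 CPM (0.547).

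The endothelial chemokine and cytokine list had 6 of 15 members past the minimum, 3 at least 2-fold higher (Cxcl9, Ccl21a and Csf1) and 0 lower, beside the 6.98% and 5.5% of all genes tested, with a sum of 974 and 1882 CPM (1.93, 1.66 to 2.25) to which Ccl21a gave 74.3 and 504 CPM. All 3 were below 100 CPM in WT and passed only through A20ZF7, as did Tnip1 and Bcl3 of the next list. Cxcl12 was at 440 and 488 CPM and Cxcl10 at 169 and 239 CPM. NF-kB feedback and target genes had 14 of 20 members past the minimum, 4 higher (Tnfaip3, Tnip1, Bcl3 and Vcam1) and 0 lower, beside the same 6.98% and 5.5%, with a median ratio of 1.76. They summed to 4285 and 5589 CPM (1.30, 1.20 to 1.41), against 2702 and 3994 CPM in all other cells. Tnfaip3, the transcript of A20 itself, was at 314 and 673 CPM (2.14-fold, 1.65 to 2.79), at least 2-fold in 12 of 17 alternatives, and was detected in 27.2% and 50.3% of endothelial cells, with empty droplets at 561 and 986 CPM. The mutation is a coding change, so this level does not check the genotype. Tnip1, which binds A20, was at 54.3 and 133 CPM, with empty droplets at 53.3 and 118 CPM, so the endothelial level of Tnfaip3 was below that of empty droplets in both libraries and that of Tnip1 close to it. Nfkbia, the inhibitor IkB-alpha, was at 1417 and 1442 CPM (1.02, 0.875 to 1.18), far above its 295 and 403 CPM in empty droplets. Of the receptors for IL-17, IL-22, TNF and IL-1, 4 of 11 passed the minimum. Of these, 1 (Tnfrsf1b, at 68.6 and 154 CPM) was at least 2-fold higher and 0 lower, beside the same 6.98% and 5.5%. Tnfrsf1b was below 100 CPM in WT and passed only through A20ZF7. Il1r1 was at 200 and 329 CPM and Il6st at 403 and 270 CPM.

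The lists of antigen presentation and interferon-stimulated genes are read beside the 6.98% and 5.5% of all genes tested. All 9 MHC class I genes passed the minimum, with a median ratio of 1.21, 1 (Tap2, a peptide transporter, at 77.1 and 228 CPM) at least 2-fold higher, 0 lower, and a sum of 7076 and 8336 CPM (1.18, 1.11 to 1.26). B2m was at 2737 and 3325 CPM (1.21) and H2-K1 at 1808 and 1988 CPM (1.1). MHC class II genes summed to 837 and 1962 CPM, with H2-Aa and Cd74 of 4 members past the minimum at least 2-fold higher, 0 lower and a median ratio of 2.17. Cd74, the invariant chain, was at 454 and 1167 CPM (2.57-fold, 2.08 to 3.17), and at 772 and 639 CPM in empty droplets, so only the A20ZF7 endothelial level was above that of its empty droplets. Of 13 interferon-stimulated genes, 10 passed the minimum, 0 were at least 2-fold lower, and the median ratio was 1.36. Gbp7, an interferon-induced GTPase, was at 80 and 170 CPM (2.12-fold), Irf1 at 823 and 615 CPM (0.748), and Ly6e at 1491 and 1479 CPM. Tap2 and Gbp7 were below 100 CPM in WT and passed the minimum only through A20ZF7.

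The lists of growth factor and flow pathways had 3 to 7 members past the minimum, and their counts are read beside the 6.98% and 5.5% of all genes tested, from which 0 or 1 call in so few members cannot be told apart. In the VEGF list 4 of 10 members passed the minimum with 0 past 2-fold either way and a sum of 2574 and 2566 CPM. Kdr was at 577 and 854 CPM (1.48, 1.20 to 1.83) and Flt1 at 1334 and 976 CPM (0.731, 0.613 to 0.869), but Kdr is a gate gene. The angiopoietin and Tie list had 3 of 6 members past the minimum and a median ratio of 0.731, with Ptprb, the phosphatase that restrains Tie2, at 1348 and 986 CPM. In the Notch list 3 of 10 passed, with Hes1 at 226 and 106 CPM (0.470). In the BMP and TGF-beta list 7 of 12 passed, with 0 past 2-fold and a median ratio of 0.970. Id3, a direct BMP target, was at 1454 and 1410 CPM. Of the tip cell genes 5 of 12 passed, and Aplnr, the apelin receptor, was the only one past 2-fold, at 126 and 42.4 CPM (0.337). Among angiocrine factors 3 of 13 passed, and Edn1, or endothelin-1, was at 209 and 84.8 CPM (0.407, 0.221 to 0.706), with a list median of 0.510. Shear-responsive and anticoagulant genes had 6 of 10 past the minimum, 0 past 2-fold, and Klf2, which laminar flow induces, was at 2351 and 1957 CPM (0.832, 0.734 to 0.942). None of 12 proliferation genes passed the minimum, and they summed to 200 and 329 CPM.

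Immediate early and heat shock genes respond to tissue dissociation. All 11 passed, with a median ratio of 0.631, 1 (Egr1) at least 2-fold lower and 0 higher, beside the 5.5% and 6.98% of all genes tested, and a sum of 16892 and 11257 CPM (0.666, 0.634 to 0.700). Egr1 was at 2394 and 1177 CPM (0.492, 0.422 to 0.571), a call that 12 of 17 alternatives kept, Atf3 at 1488 and 939 CPM, and Fos at 2608 and 1999 CPM. The same list was at 7929 and 5289 CPM in T cells and at 7102 and 5355 CPM in all other cells. In stromal cells it went the other way, at 3984 CPM in WT and 4300 CPM in A20ZF7. The part of this response in the other differences was not tested.

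The hashtags allowed a look at the WT mice one by one, the nearest the files come to animal spread. Where 1 hashtag had to hold at least 80% of the WT hashtag UMIs, mouse 1 had 87 endothelial cells of 5359 (1.62%, 1.30 to 2.0) and mouse 2 had 45 of 1189 (3.78%, 2.77 to 5.03), but 15599 barcodes held both hashtags. By HTODemux, a clustering-based hashtag call of Seurat, mouse 1 had 79 of 4296 (1.84%, 1.46 to 2.29) and mouse 2 had 80 of 5137 (1.56%, 1.24 to 1.93), so the order of the mice depended on the call. The A20ZF7 share of 0.405% lay below all 4 of these shares, but they leave out barcodes called for both mice or none, a step not made for A20ZF7. Of the WT barcodes left out, those with both hashtags by the 80% rule held 100 endothelial cells of 15599 (0.641%), and those called for no mouse by HTODemux held 39 of 10825 (0.360%), below the A20ZF7 share.

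Between the mice by HTODemux, 25 of 1213 genes (2.06%) were at least 2-fold higher and 40 (3.3%) at least 2-fold lower in mouse 2. By the 80% rule 8 of 1232 (0.649%) and 55 (4.46%) were. Of 462 genes at least 3 times the empty-droplet level, 13 (2.81%) and 16 (3.46%) were by HTODemux, and 7 (1.48%) and 19 (4.02%) of 473 by the 80% rule. Levels in the WT mice by HTODemux were then set beside those in A20ZF7, and both mice lay on the same side of it for the genes given first. Aqp1 was at 901 and 1075 CPM in the WT mice and 159 CPM in A20ZF7, Selp at 1704 and 1956 against 748 CPM, and Cldn5 at 625 and 705 against 292 CPM. Lcn2 was at 0 and 17.6 CPM against 525 CPM, and Ubd at 0 and 0 against 186 CPM. Vcam1 was at 154 and 203 against 366 CPM, Lrg1 at 300 and 405 against 604 CPM, and Tnfaip3 at 268 and 397 against 673 CPM. By the 80% rule both mice were also below A20ZF7 for Vcam1, Lrg1 and Tnfaip3. Over mouse 2, however, the ratio was then 1.59 (0.936 to 2.84) for Vcam1 and 1.24 (0.855 to 1.85) for Lrg1, with intervals that span 1. For Tnfaip3 it was 1.65 (1.11 to 2.51). Icam1, at 828 and 573 CPM in the mice and 726 CPM in A20ZF7, and Vwf, the clotting factor, at 373 and 626 against 392 CPM, lay within the span of the WT mice by HTODemux. By the 80% rule Icam1 was at 848 and 678 CPM and Vwf at 424 and 767 CPM, so the place of Vwf depended on the call. By HTODemux, Lyve1, Mmrn1 and Ccl21a had 1 UMI each in mouse 1 and 6, 6 and 7 UMIs in mouse 2, which had 1 and 5 Lyve1 or Prox1 positive cells. By the 80% rule Lyve1 and Ccl21a had 1 UMI in either mouse and Mmrn1 had 1 and 3, so this difference depended on the call. Single A20ZF7 mice were not analysed here.

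**Figure D5:**
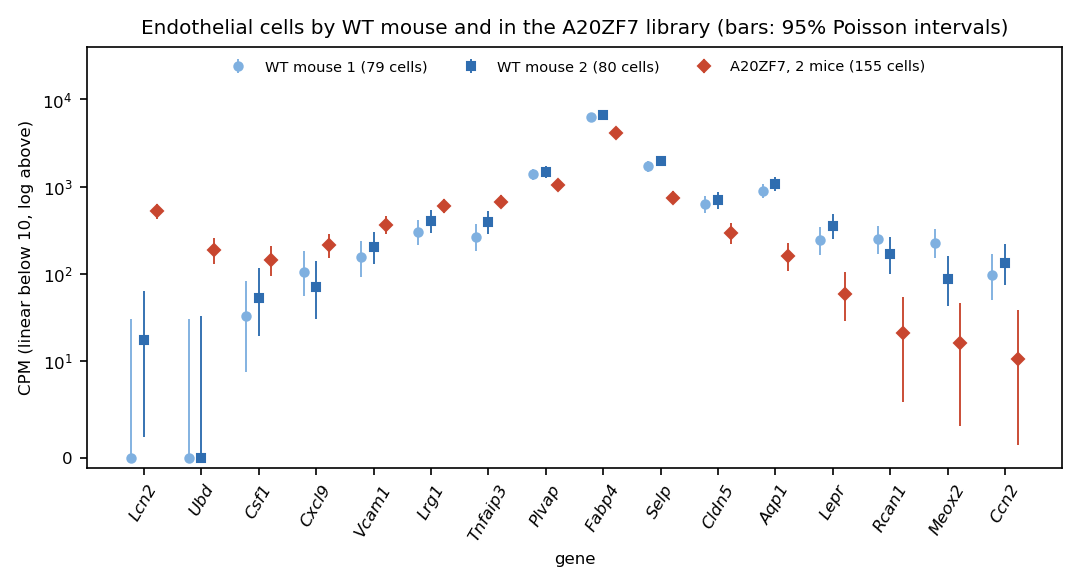
Level of named genes (CPM, log axis that is linear below 10) in endothelial cells of WT mouse 1 (79 cells), WT mouse 2 (80 cells) and the pooled A20ZF7 mice (155 cells), with 95% Poisson counting intervals as bars. Both WT mice lie below A20ZF7 for Lcn2, Ubd and Vcam1 and above it for Aqp1, Selp and Cldn5.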

How the data were processed

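The authors deposited UMI counts per gene and barcode (unfiltered matrices) for 1 WT and 1 A20ZF7 library of lamina propria cells, and antibody counts per barcode. Per the labels' processing notes they used Cell Ranger 7.1, mm10, R 4.3.3 and Seurat 4.3. The study's own analysis kept lymphocytes only. The headers of the gene matrices name another Cell Ranger version, and the WT matrix lists 33696 genes and the A20ZF7 matrix 32285, so the listed genes differed. Genes were compared over the 31950 IDs listed in both, and the effect of this on the ratios was not tested. UMIs of gated cells were summed per library, scaled to CPM, and given exact Poisson, binomial (Clopper-Pearson) and conditional intervals in Python 3.11.15 (SciPy 1.17.1, with NumPy 2.4.6 and, for tables, pandas 2.3.3). They cover counting error only, since sequencing duplicates were collapsed but cells of 1 library are not replicates. Genes were compared at 100 CPM and 20 UMIs or more in the higher library and at a fold of 2. On simulated counts of 1931 genes for the A20ZF7 over WT comparison, this called 100% of 4-fold changes, 8% of 1.5-fold changes and 2.48% of 1731 unchanged genes. These counts had Poisson error only, around the pooled profile of both libraries, with no empty-droplet RNA, mix of subtypes, doublets or spread between mice. The 2.48% is thus not a rate of false calls in these data. Doublets were left in, and Scrublet (scanpy 1.11.5) scores were used in an alternative. WT hashtags 7 and 8 were called by an 80% rule with at least 20 UMIs and by HTODemux (Seurat 5.3.0, quantile 0.99).

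Named genes are the gate genes with Lyve1 and Prox1, up to 4 members of each of 35 lists (309 symbols) by level, ratio or difference (more where a count is spelled out), the 10 highest and 10 lowest ratios at 3 times the empty-droplet level or more, and the 15 genes highest over other cells. Mitochondrial, ribosomal protein, immunoglobulin, T cell receptor, sex-linked, Gm and Rik genes were left out of the ratio-ranked groups. The members, lists and tests were chosen with earlier results of these data known. The Madcam1 split, HTODemux, the empty-droplet minimum and the gates without T cell limits were chosen after seeing the data. A member of the interferon-stimulated list is not reported here.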

Additional observations from a re-analysis of the deposited data

Results flagged for a closer look

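Fabp5, a fatty acid-binding protein, had a ratio of A20ZF7 over WT of 0.294 (0.171 to 0.479) in endothelial cells (0.630 with cells thinned to 500 UMIs before the gate), while in all other cells its ratio was 1.73 (1.60 to 1.88), the opposite direction. With 1 library per genotype the difference between these ratios was not tested.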

How the results depend on the processing

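Across all alternatives to the gate and filters, the A20ZF7 over WT share of endothelial cells stayed below 1. Its ratio of 0.387 became 0.313 with at least 1000 UMIs per cell, 0.255 with at least 4 UMIs of 3 gate genes, 0.266 with no T cell or Ptprc UMI and at most 1 stromal UMI, 0.201 without WT barcodes holding both hashtags, 0.533 with no T cell limit, 0.613 with neither limit, and 0.107 to 0.260 with 1 WT mouse left out. Settings with 1 WT mouse left out keep only WT barcodes called for the other mouse, so they also leave out those called for both or none, and these changes were not separated. The Lyve1 or Prox1 ratio of 1.12 ranged from 0.581 to 3.37 with 1 WT mouse left out and had no value after thinning. The count of 146 genes at least 2-fold higher became 94 with at least 1000 UMIs, 49 with the stricter gate, 48 with no T cell or Ptprc UMI, 15 after thinning, 71 with the empty-droplet level taken off by Igha (34.1% of WT and 41.0% of A20ZF7 endothelial UMIs), 57 at 200 CPM and 40 UMIs, 438 at 50 CPM and 10 UMIs, 21 at 3 times the empty-droplet level, and 188 to 252 with 1 WT mouse left out. The count of 115 genes at least 2-fold lower became 204, 37, 184, 48 and 280 with the stricter gate, thinning, the empty-droplet level off and the higher and lower minimums, and 68 to 118 with 1 WT mouse left out. The lymphatic ratio of 42.4 in WT became 14.3 with the stricter gate and 29.2 to 234 with 1 mouse left out, and 239 in A20ZF7 became 90.5 with no T cell limit and 91.7 with neither limit. The share of mouse 2 over mouse 1 was 2.33 by the 80% rule, 1.48 with at least 1000 UMIs and 0.847 (0.622 to 1.15) by HTODemux, the reverse order. Between 7 and 9 antibodies passed in all alternatives. Of the 20 named genes, Mmrn1 turned to 0.705 with no T cell or Ptprc UMI, where Ccl21a, Lyve1 and Slu7 were at 1.24, 1.13 and 1.88. With cells thinned before the gate Rcan1 turned to 1.02 and Upk3bl to 1.37, and Cxcl9 and Tmem255b were at 1.37 and 0.683. Slu7 was at 1.92 with no T cell limit and 1.54 with neither. The causes were not tested. Over these settings Lcn2 ranged from at least 4.10 to 106, Ubd from at least 2.28 to 27.1, Aqp1 from 0.0996 to 0.244 and Selp from 0.329 to 0.570. Madcam1 ranged from 1.38 to 2.37, Vcam1 from 1.53 to 16.4 and Lrg1 from 1.24 to 4.10. Each of these upper ends came from cells thinned before the gate, where every cell kept only 500 UMIs. Where a library had 0 UMIs of a gene, as WT had for Ubd in the main setting, the value is a bound at the floor of 3 UMIs. No paired analysis was possible because each genotype is 1 library of pooled mice. Depth limits levels to 8.57 CPM in WT and 15.9 CPM in A20ZF7 (3 UMIs).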

Other observations

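Most cells with UMIs of both Lyve1 and Prox1 lay outside the endothelial gate. UMIs of both Lyve1 and Prox1 were found in 10 WT cells (0.0452% of filtered cells) and 21 A20ZF7 cells (0.0549%), of which the gate held 1 and 3, and 8 and 15 had too few UMIs of the gate genes. Ccl21a was detected in 10 of these 10 WT and 17 of 21 A20ZF7 cells, and Mmrn1 in 10 and 16. Flt4 was detected in 7 and 12. Summed over these cells, Ccl21a was at 5164 CPM in WT and 4564 CPM in A20ZF7. Mmrn1 was at 3851 and 1808 CPM and Flt4 at 788 and 488 CPM, so none of these genes was higher in A20ZF7. Ptprc, the leukocyte gene for CD45, was detected in 1 and 9, and more than 1 T cell UMI in 0 and 8.

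More than 50 CD31 antibody UMIs were counted on 1543 WT cells, of which 213 were in the endothelial gate and 494 had a Ptprc UMI.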
